A study of Mus musculus with 8 samples.

Results

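Lipid droplet and cholesteryl ester turnover was followed through 10 genes, *Lpl*, *Acsl1*, *Soat1*, *Dgat1*, *Dgat2*, *Plin2*, *Plin3*, *Pnpla2*, *Abhd5* and *Nceh1*, which were taken by symbol from a table of 55401 genes. The rule for taking them uses no measured value, but the list was drawn up with earlier results of these data known. The table holds poly(A) RNA-seq counts of mouse hepatic macrophages in 8 libraries, 2 for each of 4 groups. Macrophages labelled normal came from wild-type (WT) mice on a standard diet. Those labelled steatotic came from mice that lack the melanocortin 4 receptor (MC4R-KO) and were kept on a Western diet, over 6 to 10 weeks, so that genotype and diet cannot be told apart. Both kinds of mice had the C57BL/6J background. The cells were captured with magnetic beads through F4/80, a surface protein of macrophages, were plated on collagen, and received either vehicle (Veh) or cholesterol crystals (CC, 500 μg/ml) for 24 hours. The labels do not say whether the 2 libraries of a group came from separate mice or cultures, and p-values then measure only the spread between libraries, which may be technical.

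Total counts were 58668655 to 74529462 per library, and levels are given as CPM, the counts scaled to the same total in each library. The summed CPM of 11 macrophage markers was 12030 to 18402, and the adipocyte genes *Adipoq*, *Cidec* and *Lep* had 0 counts in all 8 libraries. *Mc4r*, the targeted gene, had 0 counts in the 4 libraries labelled normal and 22 to 72 counts in those labelled steatotic. That is the reverse of what the labels would give unless the disrupted allele is still transcribed, so each direction below between the livers rests on the labels. The summed level of 13 hepatocyte markers was 60.5 to 72.6 CPM with the label normal and 5.68 to 7.21 CPM with the label steatotic (of 10 tested, 7 lower and 0 higher with Veh, 8 lower and 1 higher with CC), and that of 8 T or NK cell markers was 1.74 to 2.55 CPM and 14.8 to 19.0 CPM. These sums move with the label, and their part in the differences between the livers was not tested. In bulk samples fewer cells of a type and less RNA per cell cannot be told apart.

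Macrophages that take up lipid store cholesterol as cholesteryl ester and fatty acids as triglyceride in lipid droplets, which are bounded by a phospholipid monolayer and coated with perilipins. Esterification takes place at the endoplasmic reticulum, and the stored esters are released again by lipases on the droplet surface or, after delivery to lysosomes, by the lysosomal acid lipase. A macrophage in which storage exceeds release becomes a foam cell, the cell type best known from atherosclerotic plaques.

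All 10 genes are protein-coding and passed the filter of at least 0.5 CPM in at least 1 library, with 15202 genes in all. Divided by the length of their exons in GENCODE release M21, their levels spanned about 3 orders of magnitude. That length joins the exons of all annotated transcripts, 10478 bases for *Lpl* and 3512 for *Plin2*, so the order below depends on it. In CPM not divided by length, *Lpl* lay above *Plin2*, with means of 2410 and 1736 CPM. The exception was the second steatotic library with Veh (1428 against 1432 CPM). *Plin2* stood first in every library, with 408 to 580 CPM per kilobase (median 499). *Lpl* followed with 136 to 326 CPM per kilobase and *Nceh1* with 69.5 to 97.7, and none of these 3 ranges overlapped with the next. *Soat1* (45.6 to 54.5 CPM per kilobase), *Pnpla2* (33.7 to 55.0) and *Plin3* (28.4 to 58.0) could not be ordered, since *Soat1* was above *Pnpla2* in 5 of 8 libraries and *Pnpla2* above *Plin3* in 3 of 8. *Acsl1* (8.86 to 36.2 CPM per kilobase) and *Abhd5* (8.50 to 15.7) overlapped in range, but *Acsl1* was the higher of the pair in each of the 8 libraries. The triglyceride synthases stood last in all libraries, *Dgat1* at 2.49 to 4.37 CPM per kilobase and *Dgat2* at 0.249 to 0.536.

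**Figure D1:**
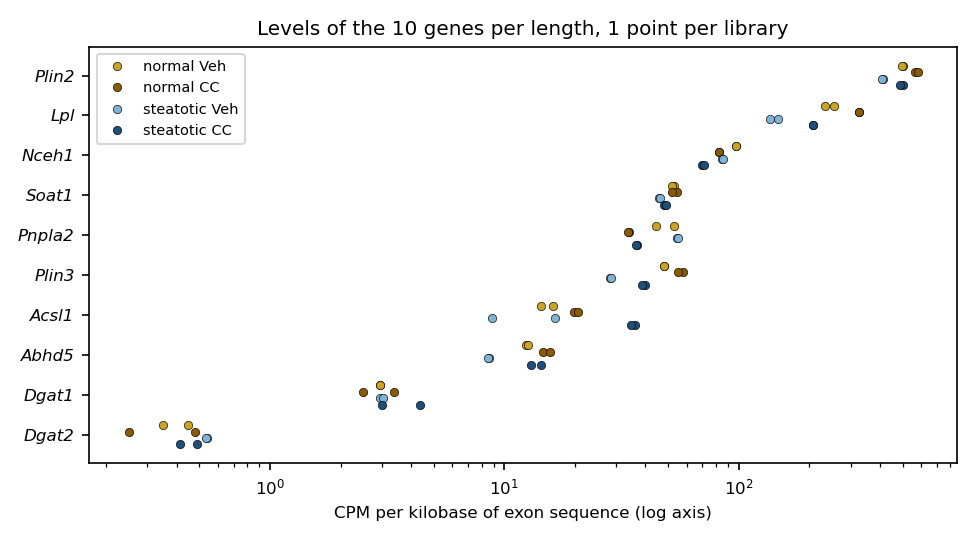
Level of each of the 10 genes in CPM per kilobase of exon sequence (log axis), 1 point per library, coloured by group. *Plin2* lies between 408 and 580 in all 8 libraries and *Dgat2* between 0.249 and 0.536, while the points of *Soat1*, *Pnpla2* and *Plin3* overlap.

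The promoters are shown because they are where the members can be compared outside the RNA counts. The RefSeq windows of GRCm38.p6 reach from 250 bases before to 50 bases after a gene's start, and 7 of the 10 genes matched with 8 windows, *Acsl1* with 2. *Dgat1*, *Dgat2* and *Lpl* had no entry. The E-box CACGTG, a palindrome bound among others by transcription factors of the TFEB and TFE3 family, occurred in 2 of the 8 windows, those of *Plin2* and *Nceh1*, and in 7.15% of all 32851 windows. Counted from the start, it covers bases -4 to 2 in *Plin2* and -26 to -21 in *Nceh1*. The stretches shown are those of *Plin2* and *Nceh1* and, for comparison of the letters, of *Plin3* and *Pnpla2*, the other coat gene and the droplet lipase, all 4 of which were called with CC with both labels. They begin 200 bases before the start, capitals mark the E-box, and each ends 10 bases after the start except that of *Nceh1*, which ends at base -11. With CC *Plin2* and *Plin3* were higher and *Nceh1* and *Pnpla2* lower, so the genes with the E-box did not share a direction. *Abhd5*, also called with both labels, has a window without the E-box, which is not shown. GENCODE places the first base of *Nceh1* further upstream, at 27182965, so that the E-box lies within the first exon of that transcript, and it gives *Plin3* another start upstream, for which the stretch shown is intronic.
*Plin2*, chr4:86670050-86670259, minus strand: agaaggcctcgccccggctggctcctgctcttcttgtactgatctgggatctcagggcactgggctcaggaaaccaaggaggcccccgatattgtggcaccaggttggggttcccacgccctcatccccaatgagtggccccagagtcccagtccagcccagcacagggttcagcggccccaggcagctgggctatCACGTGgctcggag
*Nceh1*, chr3:27182804-27182993, plus strand: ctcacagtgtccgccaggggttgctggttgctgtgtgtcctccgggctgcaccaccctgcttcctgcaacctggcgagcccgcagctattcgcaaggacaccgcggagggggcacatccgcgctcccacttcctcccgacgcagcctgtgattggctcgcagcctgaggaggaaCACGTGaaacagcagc
*Plin3*, chr17:56290502-56290711, minus strand: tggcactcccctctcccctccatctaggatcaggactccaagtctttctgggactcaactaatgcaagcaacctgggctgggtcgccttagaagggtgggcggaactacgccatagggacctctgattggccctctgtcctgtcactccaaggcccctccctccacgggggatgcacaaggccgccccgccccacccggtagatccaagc
*Pnpla2*, chr7:141454988-141455197, plus strand: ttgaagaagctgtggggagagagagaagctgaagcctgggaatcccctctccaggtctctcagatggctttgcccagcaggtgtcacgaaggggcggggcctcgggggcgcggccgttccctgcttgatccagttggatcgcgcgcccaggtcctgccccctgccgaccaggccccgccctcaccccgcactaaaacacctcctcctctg

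The other letters searched, on both strands, were in none of the 8 windows. They were the E-box with its flanks (TCACGTGA, in 0.974% of all windows, a subset of the E-box matches), the AP-1 site (TGANTCA, 7.81%), the EGR1 site (GCGTGGGCG, 0.612%), a C/EBP stress element (TTGCNNCAA, 2.08%) and the paired nuclear receptor motifs named DR1 (0.0396%) and DR4 (0.0152%). The members' windows held 50% to 74% G and C (median 62.7%), against a median of 52.7% over all windows. A match or its absence is a statement on the letters of this window only.

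Differences were tested with edgeR's quasi-likelihood test, and adjusted p-values are Benjamini-Hochberg values over the 15202 genes, called below 0.05. Values with ± are log2 fold changes with their standard error, from 2 libraries a group. With Veh, the first question was how the genes stood in the 2 kinds of liver, and 6 of 10 were lower with the label steatotic and none higher. Over all genes tested, 30.7% were called in this comparison and 14.3% were called lower. With CC, 6 of 10 were called with the label normal (4 higher, 2 lower), where 11.8% of all genes were called, 6.27% higher and 5.54% lower. With the label steatotic 7 of 10 were called (5 higher, 2 lower), where 22.9% of all genes were called, 12% higher and 10.9% lower. Called genes with CC were higher rather than lower in 53.1% of cases with the label normal, a share that became 42.1% when libraries were scaled by their totals alone, and no member changed its call or, where called, its direction under that scaling in the responses to CC. Under the same scaling that share went from 52.4% to 49.0% with the label steatotic. Between the livers with Veh it went from 53.4% to 45.2%, where 6 members were again lower and 0 higher. The median log2 fold change of the 10 genes was -0.18 between the livers with Veh, 0.14 for CC with the label normal and 0.31 for CC with the label steatotic, beside medians over all genes of -0.01, 0.00 and 0.00.

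**Figure D2:**
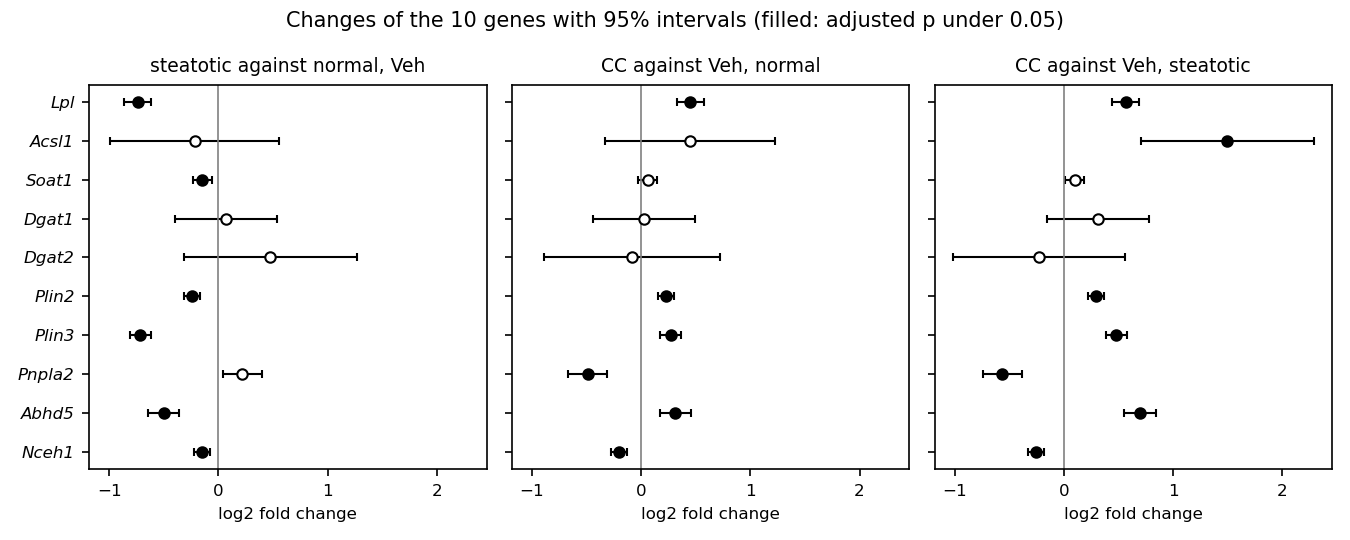
Log2 fold changes of the 10 genes in 3 comparisons, with 95% intervals from edgeR as bars and filled points for an adjusted p-value under 0.05. *Lpl*, *Plin2*, *Plin3*, *Abhd5* and *Nceh1* are filled in all 3 panels, and *Dgat1* and *Dgat2* in none.

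*Lpl* (ENSMUSG00000015568.16, chr8:68880491-68907448) encodes lipoprotein lipase, the secreted enzyme that frees fatty acids from triglyceride-rich lipoproteins. Its level with the label normal was 2681 and 2444 CPM with Veh and 3401 and 3419 CPM with CC. With the label steatotic it was 1546 and 1428 CPM with Veh and 2181 and 2178 CPM with CC. The 4 groups did not overlap, and the steatotic libraries with CC remained below the normal libraries with Veh. *Lpl* was 1.67-fold lower with the label steatotic (-0.74 ± 0.05, edgeR adjusted p = 4.05e-05). CC raised it 1.36-fold with the label normal (0.45 ± 0.05, edgeR adjusted p = 0.00156) and 1.48-fold with the label steatotic (0.57 ± 0.05, edgeR adjusted p = 0.00021).

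The partners and relatives of LPL were listed with 14 genes, of which 12 were tested, and CC changed 4 of them with the label normal (1 higher, 3 lower) and 7 with the label steatotic (2 higher, 5 lower), beside 11.8% (5.54% lower) and 22.9% (10.9% lower) of all genes. *Angptl4*, a secreted inhibitor of LPL, went down with CC while *Lpl* went up. It stood at 31.8 and 29.3 CPM with Veh and 12.4 and 14.7 CPM with CC in the normal libraries, and at 31.0 and 33.2 CPM with Veh and 9.30 and 10.5 CPM with CC in the steatotic ones. These are falls of 2.19-fold (edgeR adjusted p = 0.000642) and 3.21-fold (edgeR adjusted p = 3.85e-05), with no overlap between Veh and CC. *Lmf1*, which encodes a factor that LPL needs to mature in the endoplasmic reticulum, fell 1.57-fold with the label steatotic (-0.65 ± 0.11, edgeR adjusted p = 0.00418) and 1.35-fold with the label normal (-0.43 ± 0.11, edgeR adjusted p = 0.0438), the latter a call that held in 9 of 17 alternative settings. *Gpihbp1*, which anchors LPL on capillary endothelium, had 4 to 19 counts per library and was not tested. *Sdc1*, a heparan sulfate proteoglycan that binds LPL and lipoproteins, had the lowest adjusted p-value among the 59 tested pathway genes in both responses to CC. It rose from 146 and 152 CPM to 329 and 325 CPM with the label normal (2.25-fold, edgeR adjusted p = 1.48e-05) and from 131 and 131 CPM to 681 and 654 CPM with the label steatotic (5.16-fold, edgeR adjusted p = 2.47e-07).

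*Acsl1* (ENSMUSG00000018796.13, chr8:46471037-46536051) encodes a long-chain acyl-CoA synthetase, which activates fatty acids for esterification or oxidation. Its level was 149.96 and 169 CPM in the normal libraries with Veh and 207 and 217 CPM with CC. In the steatotic libraries it was 92.8 and 173 CPM with Veh and 379.5 and 363 CPM with CC. The 2 steatotic libraries with Veh lie on either side of both normal libraries with Veh, and those with CC lie above all others. *Acsl1* rose 2.83-fold with CC with the label steatotic (1.50 ± 0.30, edgeR adjusted p = 0.0268), the only called change of a member past 2-fold. The call was lost when the 4 libraries of the comparison were fitted alone (edgeR adjusted p = 0.148), when genes with any count were kept (0.0703) and without any 1 of the 6 libraries outside the steatotic Veh group (0.0614 to 0.110), while it was kept without the first (1.12) or the second (2.02) library of that group. With the label normal the change was 0.45 ± 0.30 (edgeR adjusted p = 0.437), which was called when the 4 libraries of the comparison were fitted alone (0.0125) or without the first (0.00779) or the second (0.00841) steatotic library with Veh. Between the livers with Veh the value was -0.22 ± 0.30 (edgeR adjusted p = 0.644), and it was 0.16 without the first steatotic library with Veh and -0.73 (edgeR adjusted p = 0.00131) without the second. Of the exon bases of *Acsl1*, 9.91% lie opposite *Gm45244*, which had a mean of 0.331 CPM, and the sources used here do not say whether the counting used strand.

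Among the 5 other acyl-CoA synthetases tested, *Acsl4*, which prefers arachidonic acid, rose with CC with both labels. Its level went from 210 and 206 CPM to 284 and 284 CPM with the label normal (0.48 ± 0.03, edgeR adjusted p = 0.000151) and from 191 and 192 CPM to 297 and 303 CPM with the label steatotic (0.66 ± 0.03, edgeR adjusted p = 1.2e-05). *Acsl3*, the synthetase of nascent droplets, rose from 7.17 and 7.22 CPM to 15.4 and 16.7 CPM with the label steatotic (1.17 ± 0.18, edgeR adjusted p = 0.00243), and stood at 5.91 and 5.77 CPM with Veh and 3.83 and 5.68 CPM with CC with the label normal (-0.26 ± 0.18, edgeR adjusted p = 0.423). A stretch of 5.60% of its exons is shared with *Utp14b* on the same strand, which had a mean of 5.67 CPM, so that reads there could belong to either gene. *Acsl5* was higher with the label steatotic with Veh (0.23 ± 0.04, edgeR adjusted p = 0.00675) and lower with CC with that label (-0.17 ± 0.04, edgeR adjusted p = 0.0343), the latter in 8 of 17 alternative settings, and 8.31% of its exons lie opposite *Zdhhc6*, which had a mean of 48.6 CPM.

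Of the 7 genes of fatty acid uptake and binding, 4 were higher, 1 was lower and 2 were not called with the label steatotic with Veh, where 16.4% of all genes were called higher and 14.3% lower. *Fabp5*, an intracellular fatty acid binding protein, was at 259 and 250 CPM with the label normal and 436 and 463 CPM with the label steatotic (1.83-fold, edgeR adjusted p = 5.08e-06). *Slc27a1*, a fatty acid transport protein, was 1.87-fold higher (edgeR adjusted p = 4.62e-05) and its relative *Slc27a4* 1.27-fold lower (edgeR adjusted p = 0.00158). In the responses to CC, 0 of the 7 were called with the label normal and 5 with the label steatotic, all higher, where 6.27% and 12% of all genes were called higher. In the test of the difference between the responses 1 of the 7 was called, *Fabp5*, beside 3.22% of all genes. With CC *Fabp5* stood at 248 and 244 CPM with the label normal and 580 and 583 CPM with the label steatotic, a rise of 1.31-fold with the latter label (edgeR adjusted p = 0.00037). *Fabp4* stood at 5.32 and 4.18 CPM and at 27.5 and 27.9 CPM in the same libraries, 5.93-fold apart (edgeR adjusted p = 9.36e-06). The summed level of 8 endothelial markers moved with the label as well, from 149 to 181 CPM in the normal libraries and 228 to 259 CPM in the steatotic ones. Of the 7 tested, 4 were higher and 1 lower with the label steatotic with Veh. With CC 1 was higher and 0 lower with the label normal and 3 were higher and 1 lower with the label steatotic, where *Kdr* went from 34.2 and 33.6 CPM to 52.0 and 47.5 CPM and *Pecam1* from 96.1 and 94.3 CPM to 35.5 and 40.7 CPM. None of the 8 was at 0 in all libraries, and their part in these results was not tested.

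**Figure D3:**
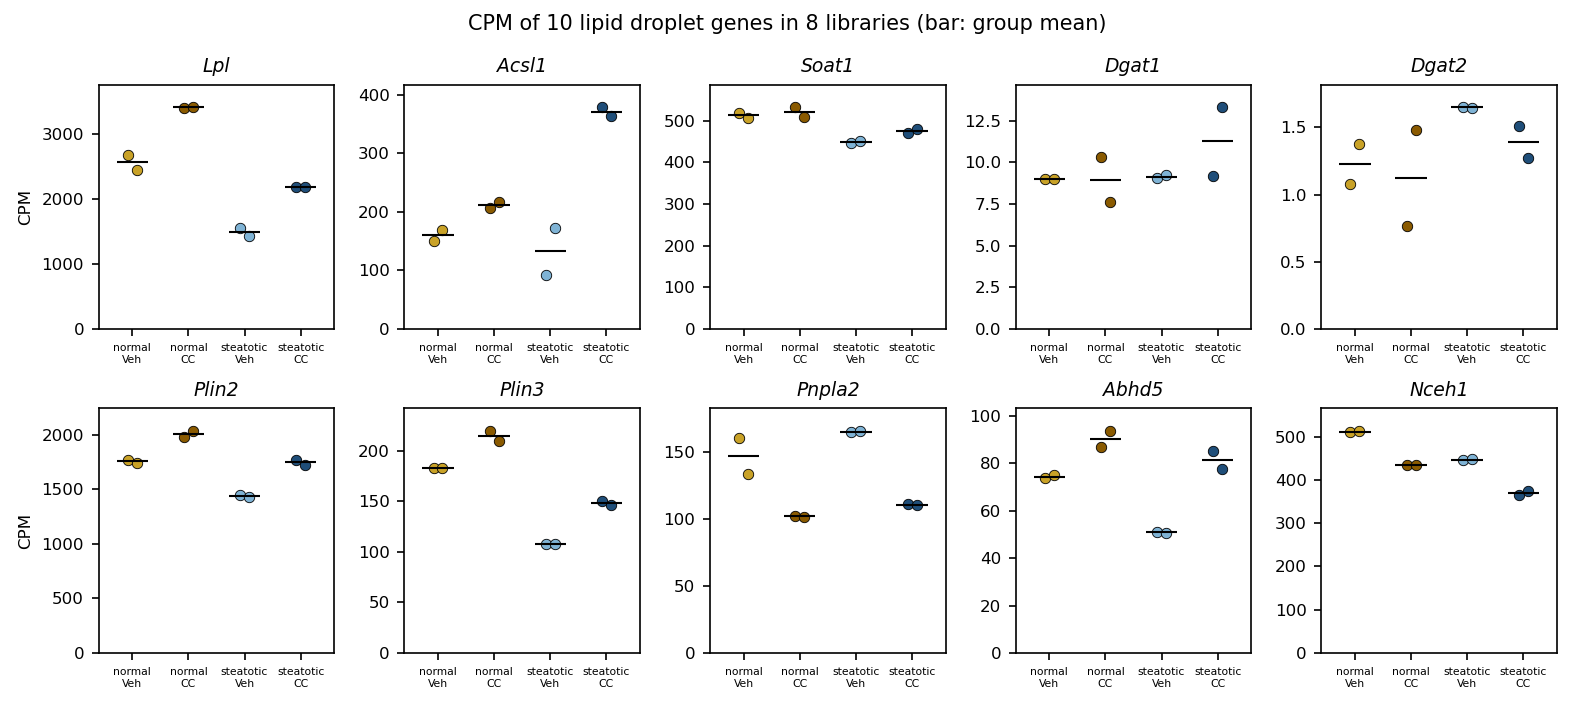
CPM of the 10 genes in each of the 8 libraries, by group, with the group mean as a bar. CC libraries lie above Veh libraries of the same label for *Lpl*, *Plin2*, *Plin3* and *Abhd5* and below them for *Pnpla2* and *Nceh1*, and the 2 steatotic Veh libraries of *Acsl1* lie far apart, at 92.8 and 173 CPM.

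*Soat1* (ENSMUSG00000026600.12, chr1:156424525-156474331) encodes the sterol O-acyltransferase of macrophages, which forms cholesteryl ester from free cholesterol. Its highest and lowest libraries were closer, relative to their level, than those of any other member. Its level was 517 and 507 CPM with Veh and 533 and 508 CPM with CC in the normal libraries, and 446 and 451 CPM with Veh and 469 and 479 CPM with CC in the steatotic ones. All 4 steatotic libraries lie below all 4 normal ones. With Veh the difference was -0.15 ± 0.04 (1.11-fold lower, edgeR adjusted p = 0.0186), and the call was lost without the first normal library (0.08) or either steatotic one (0.0853 and 0.0688). The response to CC was 0.06 (95% interval -0.02 to 0.14, edgeR adjusted p = 0.365) with the label normal and 0.10 (0.01 to 0.18, edgeR adjusted p = 0.0993) with the label steatotic, so that a rise above 0.18 lies outside both intervals. *Soat2*, the isoenzyme known from hepatocytes and enterocytes, was read at 23.5 and 23.8 CPM with Veh and 27.7 and 28.2 CPM with CC in the normal libraries, and at 31.0 and 29.3 CPM with Veh and 39.6 and 38.7 CPM with CC in the steatotic ones. It was higher with the label steatotic (0.40 ± 0.06, edgeR adjusted p = 0.00266), while *Soat1* was lower. CC raised it with the label steatotic (0.39 ± 0.06, edgeR adjusted p = 0.00347) and with the label normal (0.28 ± 0.06, edgeR adjusted p = 0.0301), the latter in 11 of 17 alternative settings.

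*Dgat1* (ENSMUSG00000022555.12, chr15:76502015-76511953) and *Dgat2* (ENSMUSG00000030747.5, chr7:99153658-99182719) encode unrelated enzymes for the last step of triglyceride synthesis. *Dgat1* was at 8.99 and 9.03 CPM with Veh and 10.3 and 7.62 CPM with CC in the normal libraries, and at 9.05 and 9.26 CPM with Veh and 9.18 and 13.4 CPM with CC in the steatotic ones. *Dgat2* was at 1.08 and 1.37 CPM, 0.769 and 1.48 CPM, 1.65 and 1.64 CPM, and 1.51 and 1.27 CPM in the same order of groups. Libraries with CC lie on both sides of those with Veh for *Dgat1* with the label normal and for *Dgat2* with that label, and neither gene was called in any comparison. The 95% intervals of the change with CC with the label steatotic ran from -0.15 to 0.78 for *Dgat1* and from -1.02 to 0.56 for *Dgat2*, and changes within these limits are not excluded by these libraries. Of the 11 tested genes of the earlier steps of triglyceride synthesis, none was called with CC with the label normal and 4 were with the label steatotic (2 higher, 2 lower), beside 11.8% and 22.9% of all genes. Among the 4 was *Lpin2*, a phosphatidate phosphatase, which fell 1.30-fold (edgeR adjusted p = 0.00414). *Agpat4* of the same list went the other way in the steatotic libraries, from 19.0 and 20.3 CPM with Veh to 36.8 and 36.1 CPM with CC.

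*Plin2* (ENSMUSG00000028494.12, chr4:86648386-86670060) encodes the perilipin that coats droplets in most cells outside adipose tissue and is stable only when bound to them. It was at 1765 and 1743 CPM with Veh and 1977 and 2036 CPM with CC in the normal libraries, and at 1449 and 1432 CPM with Veh and 1770.0 and 1719 CPM with CC in the steatotic ones. CC libraries lay above Veh libraries with both labels, and the steatotic libraries with CC reached the level of the normal libraries with Veh. The rise was 1.17-fold with the label normal (0.23 ± 0.03, edgeR adjusted p = 0.00335) and 1.23-fold with the label steatotic (0.29 ± 0.03, edgeR adjusted p = 0.000468). With Veh *Plin2* was 1.18-fold lower with the label steatotic (-0.24 ± 0.03, edgeR adjusted p = 0.00101).

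*Plin3* (ENSMUSG00000024197.10, chr17:56277476-56292873) encodes a perilipin that moves from the cytosol onto newly formed droplets. Its level was 183 and 182 CPM with Veh and 219.6 and 209 CPM with CC in the normal libraries, and 107 and 108 CPM with Veh and 151 and 147 CPM with CC in the steatotic ones. The 4 groups did not overlap, and as for *Lpl* the steatotic libraries with CC stayed below the normal libraries with Veh. *Plin3* was 1.64-fold lower with the label steatotic with Veh (-0.72 ± 0.04, edgeR adjusted p = 1.42e-05). CC raised it 1.21-fold with the label normal (0.27 ± 0.04, edgeR adjusted p = 0.00515) and 1.40-fold with the label steatotic (0.48 ± 0.04, edgeR adjusted p = 0.000132). The other perilipins were at the limit of detection, with at most 4 counts of *Plin1*, 12 of *Plin4* and 3 of *Plin5* in any library, where 3 counts correspond to 0.0403 to 0.0511 CPM and 12 counts, about 3 fragments, to 0.161 to 0.205 CPM. Of the 8 tested genes of droplet coat and assembly, CC lowered 1 with the label normal and 2 with the label steatotic and raised none with either, where it changed 11.8% and 22.9% of all genes, shares close to those of this group. *Hsd17b11*, a droplet-bound dehydrogenase, was called with both labels, at 139 and 132 CPM with Veh and 105 and 99.9 CPM with CC in the normal libraries (-0.37 ± 0.07, edgeR adjusted p = 0.0127, lost without the first library with Veh or the second with CC) and at 134 and 146 CPM with Veh and 95.3 and 106 CPM with CC in the steatotic ones (-0.46 ± 0.07, edgeR adjusted p = 0.00213).

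*Pnpla2* (ENSMUSG00000025509.15, chr7:141455198-141460743) encodes adipose triglyceride lipase (ATGL), which starts the breakdown of stored triglyceride. It was at 160.3 and 134 CPM with Veh and 102 and 102 CPM with CC in the normal libraries, and at 165 and 166 CPM with Veh and 111 and 110.4 CPM with CC in the steatotic ones. All 4 CC libraries lie below all 4 Veh libraries. CC lowered *Pnpla2* 1.41-fold with the label normal (-0.49 ± 0.08, edgeR adjusted p = 0.00607) and 1.48-fold with the label steatotic (-0.56 ± 0.08, edgeR adjusted p = 0.00151). With Veh the difference between the livers was 0.22 ± 0.08 (edgeR adjusted p = 0.0696), and without the first normal library it was 0.35 and called (edgeR adjusted p = 0.0029), whereas without the second it was 0.088 (edgeR adjusted p = 0.228).

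*Abhd5* (ENSMUSG00000032540.16, chr9:122351608-122381524) encodes CGI-58, the coactivator of ATGL, and moved in the opposite direction to the lipase. It was at 73.8 and 75.0 CPM with Veh and 86.7 and 93.7 CPM with CC in the normal libraries, and at 51.1 and 50.7 CPM with Veh and 85.3 and 77.6 CPM with CC in the steatotic ones. With Veh the steatotic libraries lie below the normal ones, and with CC the highest steatotic and the lowest normal library differ by little, without overlap. *Abhd5* was 1.42-fold lower with the label steatotic with Veh (-0.50 ± 0.06, edgeR adjusted p = 0.000703). It rose 1.62-fold with CC with the label steatotic (0.70 ± 0.06, edgeR adjusted p = 0.000181) and 1.24-fold with the label normal (0.31 ± 0.06, edgeR adjusted p = 0.0169), the latter a call that was lost without either normal library with Veh (0.0809 and 0.0597) or the second one with CC (0.096). Of its exon bases 16.0% lie opposite *A730085K08Rik*, which had a mean of 0.0216 CPM.

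The inhibitors of ATGL differed in level. *G0s2* had 0 to 16 counts per library and was not tested. *Hilpda*, which encodes a small droplet protein that inhibits ATGL, was at 98.1 and 102 CPM with Veh and 189 and 187 CPM with CC in the normal libraries, and at 54.5 and 55.2 CPM with Veh and 191 and 185 CPM with CC in the steatotic ones. The CC libraries of both labels thus lie side by side while the Veh libraries do not. *Hilpda* was 1.77-fold lower with the label steatotic with Veh (-0.82 ± 0.04, edgeR adjusted p = 7.55e-06) and rose 1.93-fold (edgeR adjusted p = 3.03e-05) and 3.47-fold (edgeR adjusted p = 6.67e-07) with CC with the label normal and steatotic. Of the lipases beside *Pnpla2*, *Lipe*, which encodes hormone-sensitive lipase, was at 24.3 and 30.4 CPM with Veh and 21.8 and 21.6 CPM with CC in the normal libraries, and at 36.4 and 36.5 CPM with Veh and 26.1 and 25.5 CPM with CC in the steatotic ones. It was higher with the label steatotic with Veh (0.46 ± 0.10, edgeR adjusted p = 0.0129) and fell with CC with that label (-0.48 ± 0.10, edgeR adjusted p = 0.0138). The first call was lost without either steatotic library with Veh, with values of 0.30 to 0.63 over all 17 alternative settings, and the second without any 1 of the 4 libraries compared. Its change with the label normal was -0.30 ± 0.10 (edgeR adjusted p = 0.123). Of its exon bases 15.6% lie opposite *4732471J01Rik*, which had a mean of 0.348 CPM. *Abhd6*, a monoacylglycerol lipase, was 4.75-fold higher with the label steatotic with Veh (2.85 and 3.28 CPM against 15.3 and 12.9 CPM, edgeR adjusted p = 3.61e-05), and *Mgll*, the main enzyme of that step in adipose tissue, was at 0.312 to 1.61 CPM and not called in any comparison.

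**Figure D4:**
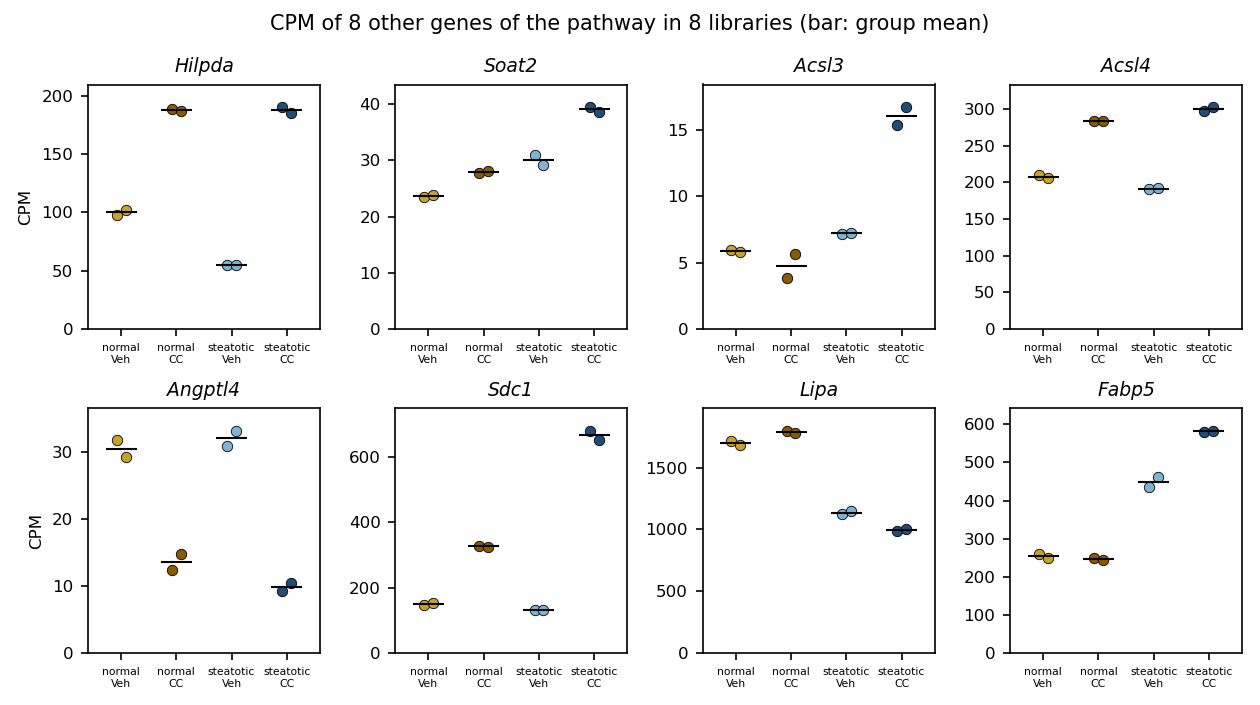
CPM of 8 other genes of the pathway in each of the 8 libraries, by group, with the group mean as a bar. *Hilpda* lies at 54.5 and 55.2 CPM in the steatotic Veh libraries and between 185 and 191 CPM in all 4 CC libraries, and *Angptl4* is the only one of the 8 that is lower with CC with both labels.

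*Nceh1* (ENSMUSG00000027698.14, chr3:27182965-27284608) encodes neutral cholesterol ester hydrolase 1, which frees cholesterol from its ester outside the lysosome, the reverse of the step of *Soat1*. It was at 509 and 513 CPM with Veh and 433 and 434 CPM with CC in the normal libraries, and at 445 and 448 CPM with Veh and 365 and 374 CPM with CC in the steatotic ones. The 4 groups did not overlap. CC lowered *Nceh1* 1.15-fold with the label normal (-0.20 ± 0.03, edgeR adjusted p = 0.00591) and 1.19-fold with the label steatotic (-0.26 ± 0.03, edgeR adjusted p = 0.000862). With Veh it was 1.11-fold lower with the label steatotic (-0.15 ± 0.03, edgeR adjusted p = 0.00892), a call that was lost without the first steatotic library (0.0537).

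*Lipa*, which encodes the lysosomal acid lipase that splits the cholesteryl ester taken up with lipoproteins and dead cells, was at 1714 and 1680 CPM with Veh and 1798 and 1782 CPM with CC in the normal libraries, and at 1121 and 1146 CPM with Veh and 989 and 1002 CPM with CC in the steatotic ones. It was 1.45-fold lower with the label steatotic with Veh (-0.54 ± 0.03, edgeR adjusted p = 1.15e-05) and 1.77-fold lower with CC (-0.82 ± 0.03, edgeR adjusted p = 1.79e-06). CC lowered it with the label steatotic (-0.17 ± 0.03, edgeR adjusted p = 0.00473). With the label normal the change was 0.11 ± 0.03 (edgeR adjusted p = 0.0466), called in 4 of 17 alternative settings.

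Of the 5 tested nuclear receptors of lipid genes, CC lowered 1 with the label normal and 3 with the label steatotic, where 5.54% and 10.9% of all genes were lowered. *Nr1h3*, which encodes the sterol receptor LXRα, was at 165 and 174 CPM with Veh and 116 and 121 CPM with CC in the normal libraries (1.40-fold lower, edgeR adjusted p = 0.000553), and at 221 and 219 CPM with Veh and 167 and 173 CPM with CC in the steatotic ones (1.28-fold lower, edgeR adjusted p = 0.000971). *Rxra*, its partner, was 1.25-fold lower with the label steatotic than with the label normal with CC (edgeR adjusted p = 0.00188). Over the whole list of 78 other pathway genes, 77 were in the table and 59 were tested. With CC 10 of 59 were called with the label normal (5 higher, 5 lower, a split that was 4 and 9 with library size only and 4 and 7 by DESeq2) and 32 with the label steatotic (15 higher, 17 lower), and between the livers with Veh 26 were called (15 higher, 11 lower). These are 16.9%, 54.2% and 44.1% of the tested list, beside 11.8%, 22.9% and 30.7% of all genes. The levels of *Dcn*, the only stellate or fibroblast marker of 9 that passed the filter, moved in the same libraries, from 2.07 to 2.14 CPM in the normal ones with Veh to 108 to 135 CPM in the steatotic ones with CC, and its part in these results was not tested. The summed macrophage markers were 17912 to 18402 CPM with Veh and 14293 to 14673 CPM with CC in the normal libraries, and 14800 to 15057 CPM and 12030 to 13346 CPM in the steatotic ones. Between the livers with Veh 6 of these 11 were called higher and 4 lower, the same counts as with CC, with *Adgre1* at 1062 and 1087 CPM against 1739 and 1730.0 CPM and *Lyz2*, which makes up the most of the sum, at 8228 and 7908 CPM against 3429 and 3591 CPM. With CC 8 of the 11 were lower with each label, and 0 and 2 were higher. The single tested neutrophil marker of 5, *S100a8*, was called higher with CC with both labels and in the difference between the responses, and the summed list was 9.08 to 9.94 CPM with Veh and 14.4 to 14.9 CPM with CC in the normal libraries, and 4.43 to 5.50 CPM and 18.5 to 19.5 CPM in the steatotic ones, with *Ly6g* at 0 in all and *S100a9*, *Retnlg* and *Cxcr2* at 0.282 CPM or less. The 5 dendritic cell markers, none of them called with CC, summed to 5.21 to 5.44 CPM with Veh and 9.72 to 10.4 CPM with CC in the normal libraries, and to 9.43 to 9.62 CPM and 8.28 to 8.99 CPM in the steatotic ones. The part of these 3 lists in the results was not tested either.

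**Figure D5:**
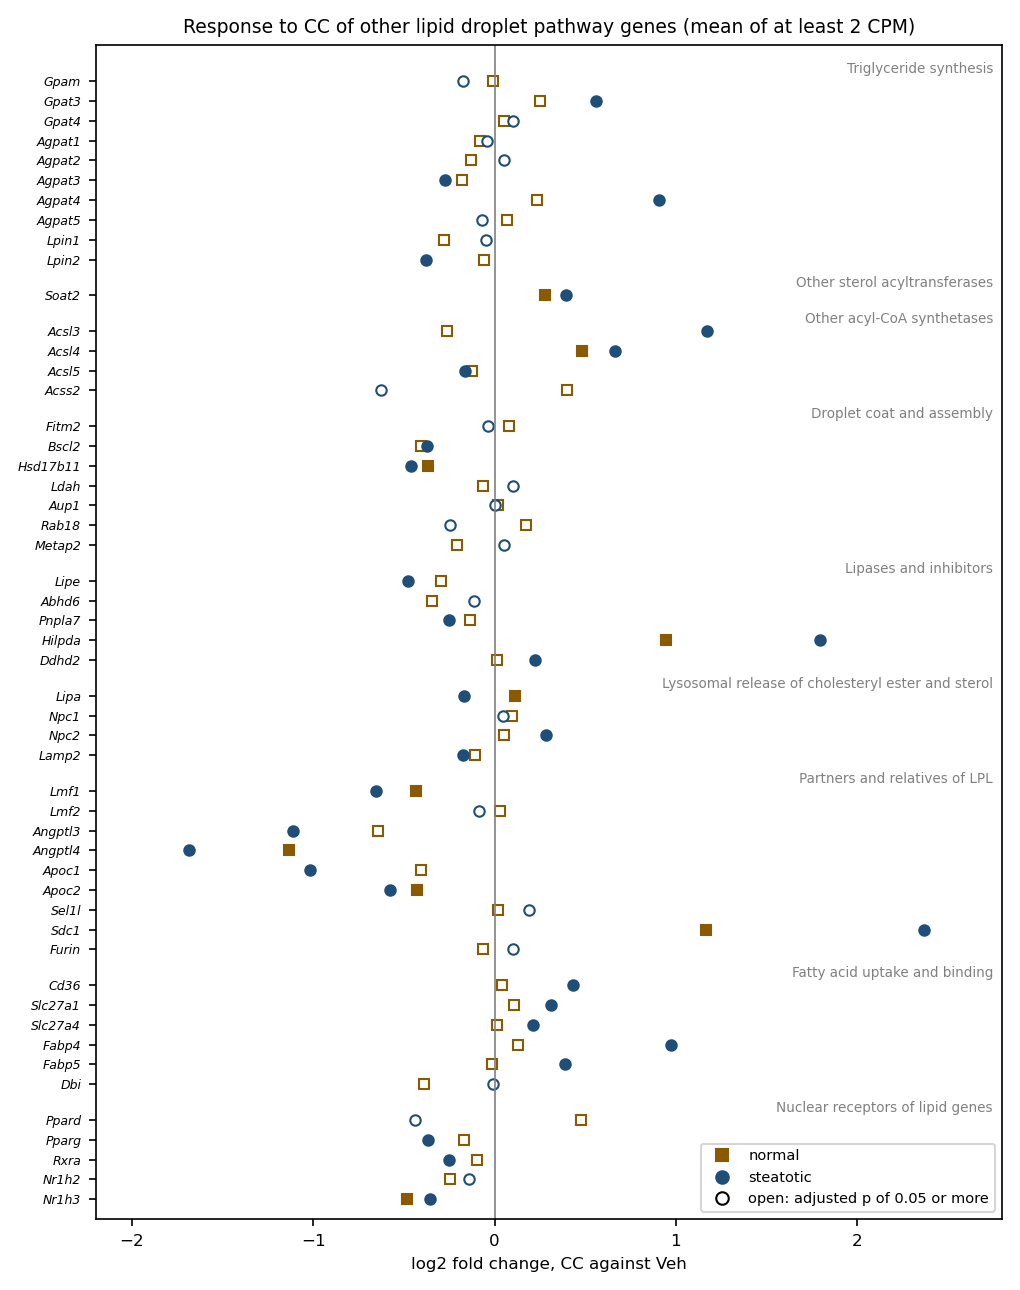
Log2 fold change with CC of 51 other pathway genes with a mean of at least 2 CPM, as squares for the label normal and circles for the label steatotic, grouped by role, with filled symbols for an edgeR adjusted p-value under 0.05. *Sdc1* and *Hilpda* lie furthest to the right and *Angptl4* furthest to the left with the label steatotic.

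Whether the response to CC differed between the livers was tested as the difference between the 2 responses. None of the 10 members was called by edgeR, where 3.22% of all genes were called, 1.95% with the higher and 1.27% with the lower response with the label steatotic. At an unadjusted p-value under 0.05 there were 2, *Plin3* and *Abhd5*, a limit for which the share of all genes was not taken. DESeq2 called 1, *Abhd5*, beside 737 of all 15202 genes. The difference was largest for *Acsl1* (1.05, 95% interval -0.05 to 2.15, edgeR adjusted p = 0.371), and it was called without the first (0.67, edgeR adjusted p = 0.0314) or the second (1.57, edgeR adjusted p = 0.00348) steatotic library with Veh. For *Abhd5* it was 0.38 (0.18 to 0.59, edgeR adjusted p = 0.071), which was called by DESeq2 (adjusted p = 0.0489), with genes of any count kept (edgeR adjusted p = 0.0306) and without the second steatotic library with CC (edgeR adjusted p = 0.0485). For *Plin3* it was 0.21 (0.08 to 0.35, edgeR adjusted p = 0.117). For *Soat1* (0.04, -0.08 to 0.16), *Plin2* (0.06, -0.04 to 0.17), *Lpl* (0.12, -0.05 to 0.29), *Nceh1* (-0.06, -0.16 to 0.05) and *Pnpla2* (-0.07, -0.32 to 0.18) the intervals included 0, and those of *Dgat1* and *Dgat2* were wider than 1 on the log2 scale. Of the 59 other pathway genes 6 were called, 5 with the higher response with the label steatotic.

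With CC, 4 of 10 members were called between the livers, all lower with the label steatotic, where 28.8% of all genes were called and 12.9% were called lower. These were *Lpl* (-0.62 ± 0.05, edgeR adjusted p = 0.00012), *Plin3* (-0.50 ± 0.04, edgeR adjusted p = 9.29e-05), *Nceh1* (-0.20 ± 0.03, edgeR adjusted p = 0.00229) and *Plin2* (-0.18 ± 0.03, edgeR adjusted p = 0.00507). *Soat1* was at -0.11 ± 0.04 (edgeR adjusted p = 0.0603) and was called with scaling by totals alone (0.0286) and with a filter on 2 libraries (0.0495). *Acsl1* was at 0.83 ± 0.30 (edgeR adjusted p = 0.11) and was called by DESeq2 (0.0316), with the 4 libraries of the comparison alone (0.000209) and without the first (0.000255) or the second (0.000242) steatotic library with Veh, a group that is no part of this comparison but sets the shared spread. *Abhd5* was at -0.12 ± 0.06 (edgeR adjusted p = 0.2). This comparison shares its libraries with those above, so that its values stand beside them and are no separate evidence.

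The genes most like a member over the 8 libraries were found by the Euclidean distance between profiles of log2 CPM centred on their own mean, among 8644 genes with a mean of at least 10 CPM. For *Plin2*, whose own profile lies 0.476 from a flat one, they were *Zfp597* (distance 0.0776), *Atp6v1d* (0.0896) and *Cog3* (0.0952). For *Soat1*, at 0.221 from flat, they were *Zfp91* (0.0567), *Cox15* (0.0731) and *Gpat4* (0.0772). For *Lpl*, at 1.21 from flat, they were *Zdhhc18* (0.123), *Hsph1* (0.18) and *Gm12346* (0.186).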

How the data were processed

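Poly(A) RNA-seq of mouse hepatic macrophages gave 8 libraries, 2 in each of 4 groups set by the labels. Per the labels and the methods, libraries were directional, and the reads passed through fastp for trimming, HISAT2 for alignment (mm10) and StringTie for quantification, with versions not given in the sources used here. What the authors deposited are estimated counts (expected counts), whole numbers that were neither normalized nor pooled, in 1 table with 55401 genes. About 4 counts were inferred in earlier work on these data to stand for 1 fragment, so counts divided by 4 were an alternative.

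From these counts, the 15202 genes that reached 0.5 CPM in 1 library or more were fitted in edgeR 4.0.16 (R 4.3.3) with TMM factors (0.981 to 1.03), 4 group means, glmQLFit with robust estimation and glmQLFTest, with a prior count of 0.125. Standard errors were taken from the F statistic. P-values were adjusted by Benjamini-Hochberg over all tested genes in each of 5 contrasts, with a threshold of 0.05. The fit was tested on simulated counts. Counts of 3 correspond to 0.0403 to 0.0511 CPM per library, a limit that covers counting error only. Alternatives were DESeq2 1.42.0 and its size factors, library size only, other filters, a prior count of 4, a 2-fold limit, a fit of the 4 libraries compared, a block for the replicate number, and each library left out. A library left alone in its group was then assumed to vary like the others. Exons came from GENCODE release M21 and promoters from RefSeq (GRCm38.p6), and figures from matplotlib 3.10.9.

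The members, the pathway list and the marker lists were chosen with earlier results of these data known. The text names every member, fixed partners of members, and up to 3 pathway genes per contrast and direction by adjusted p-value. *Npc2* and *Agpat4* were named after their values were seen. Planned features of the proteins were not analysed here.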

Additional observations from a re-analysis of the deposited data

Results flagged for a closer look

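The response to CC differed between macrophages labelled normal and steatotic for 6 of the 59 other pathway genes, by edgeR's test of the difference between the 2 responses (Benjamini-Hochberg over all genes, 2 libraries a group), and for none of the 10 members, beside 3.22% of all genes. The log2 difference, steatotic response minus normal response, was 1.20 ± 0.05 for *Sdc1* (edgeR adjusted p = 0.000119), called in all 16 alternative settings. For *Hilpda* it was 0.85 ± 0.06 (edgeR adjusted p = 0.00116), also called in all 16. Its 2 steatotic libraries with Veh were at 54.5 and 55.2 CPM and the normal ones at 98.1 and 102 CPM, whereas all 4 CC libraries were at 185 to 191 CPM. For *Fabp5* the difference was 0.40 ± 0.06 (edgeR adjusted p = 0.0113), lost in 1 of 16 settings, without the second normal library with CC. *Lipa* had the one negative difference, -0.28 ± 0.04 (edgeR adjusted p = 0.0122), lost in 3 of 16 settings, without either normal library with CC and without the second steatotic library with Veh. For *Acsl3* it was 1.43 ± 0.25 (edgeR adjusted p = 0.0261), lost in 6 of 16 settings, each of which left out 1 library with Veh or a steatotic one with CC, and its values ran from 1.18 to 1.74. *Npc2*, the lysosomal sterol carrier, had 0.23 ± 0.05 (edgeR adjusted p = 0.0434), called in 6 of 16 settings.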

How the results depend on the processing

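Of the 840 values of the members' log2 fold changes under alternative settings, 797 kept their direction and were called or not called as before. A call was lost for 15 and gained for 18, and 10 changed sign. A limit of 2-fold beside the adjusted p-value left 0 members between the livers with Veh, 0 for CC with the label normal, 1 for CC with the label steatotic and 0 between the livers with CC, and 5, 2, 7 and 11 pathway genes in the same order, with 2 for the difference between the responses to CC. Over all genes that limit left 9.12%, 1.82%, 5.05%, 8.41% and 0.908% in the order just given. For that difference, DESeq2 and genes with any count each called 1 member, *Abhd5*, beside 737 of 15202 and 658 of 28711 genes. Without 1 library, between the livers with Veh 4 to 6 members and 18 to 25 pathway genes were called, for CC 5 to 7 and 6 to 10 with the label normal and 6 to 7 and 21 to 30 with the label steatotic, for the difference between responses 0 to 1 and 3 to 6, and between the livers with CC 4 to 5 and 18 to 27. Over all genes, the share called without 1 library was 22.5% to 30.3%, 6.74% to 11.6%, 15.4% to 22.1%, 1.97% to 2.82% and 20.6% to 28.1% in the same comparisons. The one sign change outside leaving out a library was *Dgat1* for CC with the label normal, -0.0079 with library size only. Without 1 library, sign changes occurred for *Acsl1* between the livers with Veh (-0.73 to 0.16), *Dgat1* (-0.20 to 0.23) and *Dgat2* (-0.63 to 0.31) for CC with the label normal, *Dgat2* between the livers with CC (-0.067 to 0.88), and, for the difference between the responses, *Pnpla2* (-0.21 to 0.048), *Dgat1* (-0.0059 to 0.53) and *Dgat2* (-0.54 to 0.40). None of these values was called in the fit of all libraries, and the cause of the other changes was not tested.

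Libraries with the same number did not deviate together (correlations of -0.00 to 0.06), so the numbers were not read as pairs. With the replicate block, 6, 6, 7, 0 and 4 members and 25, 7, 29, 6 and 25 pathway genes were called in the order livers with Veh, CC with the label normal, CC with the label steatotic, difference between responses, and livers with CC, beside 28.8%, 10.2%, 21.3%, 2.63% and 26.8% of all genes. The intervals of *Dgat2*, at 0.769 to 1.65 CPM, were more than 1 wide on the log2 scale in every comparison, and so was that of *Dgat1* for the difference between the responses.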
